A study of Mus musculus with 8 samples.

Results

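ERRα (gene Esrra) is an orphan nuclear receptor that regulates genes of mitochondrial and energy metabolism in skeletal muscle and liver. Its chromatin binding was profiled by ChIP-seq in both tissues of wild-type (WT) mice and of ERRα 3SA mice, a knock-in in which serine phosphosites of the receptor are replaced. The peaks described here are those whose nearest annotated gene is a microRNA gene, chosen by a gene name that starts with Mir and a digit or with Mirlet. They numbered 4767 of the 126927 peaks in the 4 lists. WT muscle held 1029 of 25427 peaks, 3SA muscle 2031 of 50647, WT liver 739 of 21813 and 3SA liver 968 of 29040, which is 4.05%, 4.01%, 3.39% and 3.33% of each list.

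All mice were male, on a C57BL/6N background and 2 to 3 months old, and the labels name no treatment. Muscle, taken as gastrocnemius and soleus together, was pooled from 5 mice per genotype, and liver from 2 mice per genotype. The mutant allele is carried in the whole animal, so binding in a tissue cannot be told apart from effects of the allele elsewhere. Each genotype and tissue is 1 sequenced library and 1 peak list, made from pooled immunoprecipitations, 3 by the sample labels and another number by the study's methods. No difference between genotypes or tissues therefore has a replicate check, and no p-value is given. Intervals beside shares and ratios are 95% Wilson intervals and cover counting error only. They treat each peak as independent. Peaks of the small gene lists cluster at few names, and a shared site counts once per list, so those intervals are too narrow. The lists carry no read numbers, so depth is unknown. A peak that is missing from a list may lie under the calling threshold of that library.

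MicroRNAs are short RNAs that are cut from hairpins in longer primary transcripts and then guide silencing complexes to messenger RNAs. Pairing runs mostly through the seed, bases 2 to 8 of the mature strand, so microRNAs with the same seed share many targets. In muscle, miR-1, miR-133, miR-206, miR-208 and miR-499 are the classical muscle-enriched family, and miR-122 is the most abundant microRNA of hepatocytes. The annotated start of a microRNA gene in the lists is the 5′ end of its hairpin entry. Since the primary transcript can begin many kilobases upstream, or be the transcript of a host gene, a distance to this start is not a distance to a promoter.

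Gene names in the lists were compared with the RefSeq annotation of GRCm38.p6. Of the 785 microRNA names, 783 were found there. For 4310 of the 4767 peaks the named hairpin lay where the listed distance puts it, within 1000 bp. RefSeq placed it elsewhere on the same chromosome for 26 peaks and on another chromosome for 409. The remaining 22 peaks had a name with no entry. The displaced names made up 9.52%, 9.01%, 9.07% and 8.99% of the microRNA peaks of WT muscle, 3SA muscle, WT liver and 3SA liver. The Mir466 names, a multi-copy family, contributed 58 of these peaks, the Mir669 names 47 and Mir6364 24. A peak named for such a gene marks a position in the genome and not that microRNA.

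The sequences that matter most for reading the binding data are those around the ERR response element (ERRE), searched as TCAAGGTCA on both strands in the 300 bp at the centre of each interval. The windows below come from GRCm38.p6 and are written on the strand that reads TCAAGGTCA, with 26 bases on either side. They belong to intronic or intergenic microRNA peaks scoring at least 100 in at least 1 list, and capitals mark each ERRE. In the first 8 windows the marked element lay within a called interval of all 4 lists. The Mirlet7b and Mir21a windows lay within intervals of 3SA muscle and of both liver lists.
Mir1963, intron of Ryr1, first element (chr7:29097060-29097068, + strand): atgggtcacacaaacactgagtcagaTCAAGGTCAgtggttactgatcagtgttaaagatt
Mir1963, intron of Ryr1, other element (chr7:29097124-29097132, + strand): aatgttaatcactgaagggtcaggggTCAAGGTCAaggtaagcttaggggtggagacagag
Mir1192, intron of Klf9 (chr19:23147421-23147429, - strand): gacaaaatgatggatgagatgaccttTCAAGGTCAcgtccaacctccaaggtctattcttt
Mir6937, intron of Trappc12 (chr12:28700572-28700580, + strand): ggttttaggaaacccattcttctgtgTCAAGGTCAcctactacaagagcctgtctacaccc
Mir6896, intron of Dst (chr1:34103380-34103388, + strand): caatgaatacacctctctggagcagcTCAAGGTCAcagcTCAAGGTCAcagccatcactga
Mir34a, intergenic (chr4:150056207-150056215, + strand): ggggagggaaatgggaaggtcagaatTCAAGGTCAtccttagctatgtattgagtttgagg
Mir7034, intron of Por (chr5:135716677-135716685, + strand): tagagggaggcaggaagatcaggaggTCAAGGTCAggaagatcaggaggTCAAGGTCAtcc
Mir1932, within Rnf213 (chr11:119392311-119392319, - strand): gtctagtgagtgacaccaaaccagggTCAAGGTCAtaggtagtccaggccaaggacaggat
Mirlet7b, intergenic (chr15:85716647-85716655, + strand): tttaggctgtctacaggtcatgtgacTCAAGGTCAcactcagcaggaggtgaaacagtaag
Mir21a, intergenic (chr11:86576294-86576302, - strand): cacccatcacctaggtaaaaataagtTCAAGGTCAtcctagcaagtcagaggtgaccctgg

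The mature strands of the best-known microRNAs with nearby peaks are shown with the seed in capitals, since the seed sets which messages they can pair with. Sequences are RefSeq's, and 641 of the 785 names had a hairpin in that table. The let-7 strands share the seed GAGGUAG, and the miR-208a and miR-499 strands differ in their seeds at the last base.
let-7a-5p: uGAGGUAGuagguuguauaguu
let-7b-5p: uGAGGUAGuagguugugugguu
let-7i-5p: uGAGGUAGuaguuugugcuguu
miR-208a-3p: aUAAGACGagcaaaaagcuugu
miR-499-5p: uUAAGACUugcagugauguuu
miR-22-3p: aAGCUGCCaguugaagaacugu
miR-30a-5p: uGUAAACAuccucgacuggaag
miR-34a-5p: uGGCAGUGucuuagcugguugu
miR-192-5p: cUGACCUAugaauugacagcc
miR-21a-5p: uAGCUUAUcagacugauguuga
miR-107-3p: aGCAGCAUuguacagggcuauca
miR-33-5p: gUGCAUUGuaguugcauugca

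In muscle, microRNA peaks were 1.97 times as many in the 3SA list as in the WT list (95% interval 1.83 to 2.13), against 1.99 for all peaks. In liver the ratio was 1.31 (1.19 to 1.44), against 1.33 for all peaks. The number of microRNA genes named differed less, with 482 in WT and 635 in 3SA muscle and 403 in WT and 461 in 3SA liver. Gene names of any kind differed to a similar degree. Names in both genotypes were 84.6% of the WT and 64.3% of the 3SA microRNA names in muscle, against 84.6% and 64.8% of all gene names. In liver they were 75.4% and 65.9%, against 80.1% and 69.7%. A microRNA name was held by a median of 2 peaks in both muscle lists and in 3SA liver, and by 1 in WT liver. In 3SA muscle, 28 names held at least 10 peaks each, together 18.1% of its microRNA peaks, while 2 names did so in WT muscle, 2 in 3SA liver and 0 in WT liver. The 3SA muscle list held 1.99 times as many peaks of any kind as WT muscle. The same count was not made over all gene names, so it cannot be read as particular to microRNA names. Mir7237 was the most frequent name of both muscle lists, with 14 WT and 26 3SA peaks.

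Most microRNA peaks were not at the hairpin itself. The median distance to the annotated start was 17.3 kb in WT muscle, 19.3 kb in 3SA muscle, 17.6 kb in WT liver and 16.4 kb in 3SA liver, and the farthest peak of each list lay between 1374 and 1552 kb away. Within 20 kb lay 52.2% of the WT muscle microRNA peaks (49.1 to 55.2), where all peaks of the list gave 51.1%, and 50.7% of those of 3SA muscle (48.5 to 52.9), where all peaks gave 46.5%. The liver lists had 54.1% (50.5 to 57.7) in WT against 51.4% for all peaks and 54.4% (51.3 to 57.6) in 3SA against 55.5%. MicroRNA peaks within 1 kb of the start were 82, 127, 54 and 73 in number in WT muscle, 3SA muscle, WT liver and 3SA liver, which is 7.97%, 6.25%, 7.31% and 7.54%. Over all peaks these shares were 13.4%, 8.10%, 10.6% and 12.5%. In this nearest class the muscle ratio of 3SA to WT was 1.55 (1.17 to 2.04) for microRNA peaks and 1.21 for all peaks. The liver ratio was 1.35 (0.953 to 1.92) for microRNA peaks and 1.57 for all peaks.

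**Figure D1:**
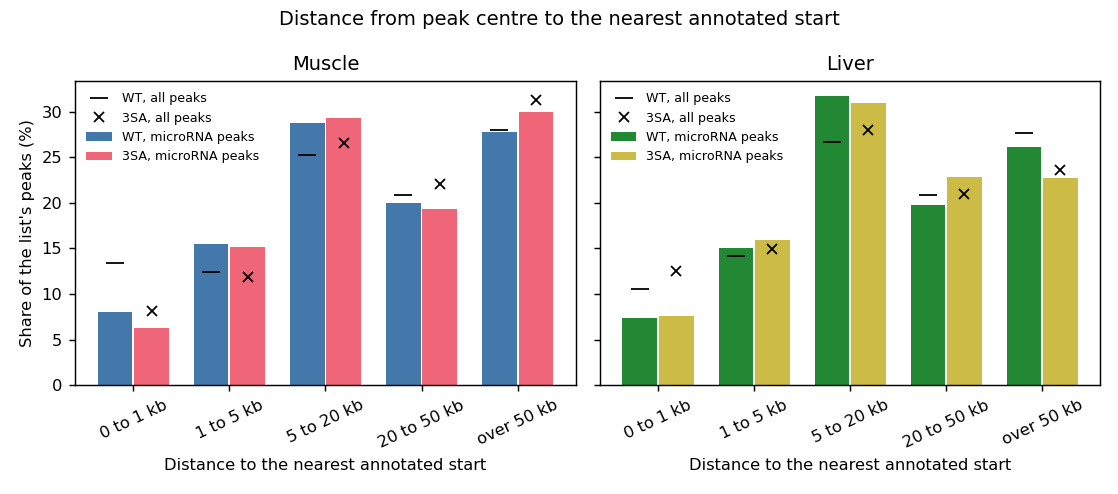
Share of peaks (%, vertical axis) in 5 classes of distance between the peak centre and the nearest annotated start, for WT and 3SA lists in muscle (left) and liver (right). Bars are microRNA peaks, and black marks are all peaks of the same list. Bars lie under the marks in the class up to 1 kb in all 4 lists, 7.97% against 13.4% in WT muscle, and above them at 5 to 20 kb.

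Most microRNA peaks lay in gene bodies. In WT muscle, 63.5% of microRNA peak centres lay within a RefSeq protein-coding gene, in 3SA muscle 60.8%, in WT liver 61.0% and in 3SA liver 60.5%, against 58.8%, 56.4%, 55.3% and 57.9% of all peaks. Introns held 48.1%, 48.0%, 49.4% and 48.7% of the microRNA peaks in the same order, against 43.3%, 43.5%, 45.3% and 46.4% of all peaks. The annotation class at transcript ends (TTS) held 4.86%, 4.53%, 5.95% and 5.06%, against 1.99%, 1.92%, 1.87% and 2.1% of all peaks. Since a microRNA entry is so short, its annotated end lies next to its start. The rule itself moves these peaks away from protein-coding starts: the median distance to the nearest of these was 52.5, 59.1, 51.9 and 48.4 kb, against 24.1, 28.9, 24.1 and 20.2 kb for all peaks. Only 11, 14, 7 and 16 microRNA peaks lay within 1 kb of a protein-coding start. These are 1.07%, 0.689%, 0.947% and 1.65%, against 10.8%, 6.59%, 8.72% and 10.4% of all peaks. GC content was close to that of the whole list, with medians of 53.7% in WT muscle, 53.3% in 3SA muscle, 51.0% in WT liver and 51.0% in 3SA liver against 53.5%, 53.1%, 50.2% and 50.4%.

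By name, the lists overlapped broadly. All 4 lists named 218 of the 785 microRNA genes, 78 names occurred in both muscle lists and no liver list, and 21 occurred in both liver lists and no muscle list. These are 27.8%, 9.94% and 2.68% of the names, against 31.3%, 8.24% and 3.25% of the 19188 gene names of any kind. The longest list, 3SA muscle, held 113 names seen in no other, 14.4% against 11.3% of all gene names. WT muscle alone held 34, WT liver alone 23 and 3SA liver alone 32, which is 4.33%, 2.93% and 4.08% against 4.4%, 2.4% and 4.35%. The muscle lists shared 408 names, which is 84.6% of the WT and 64.3% of the 3SA names, close to the 84.6% and 64.8% of all gene names. The liver lists shared 304, which is 75.4% and 65.9%, against 80.1% and 69.7%.

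By position they overlapped much less. A peak was given a partner when a peak centre of the other genotype in the same tissue lay within 300 bp. Partners were found for 184 of the 1029 WT muscle microRNA peaks, 17.9% (15.7 to 20.3) against 20.2% of all peaks, and for 183 of the 2031 in 3SA muscle, 9.01% (7.84 to 10.3) against 10.1%. In liver 289 of 739 WT peaks had one, 39.1% (35.7 to 42.7) against 42.9%, and 287 of 968 3SA peaks, 29.6% (26.9 to 32.6) against 32.2%. The share was thus below that of the whole list in each of the 4, with the whole-list value inside the interval for WT muscle, 3SA muscle and 3SA liver and just above it for WT liver. The partner carried the same microRNA name for 181 of the 184 WT muscle and 286 of the 289 WT liver peaks. Of the names shared by both genotypes, 146 of 408 had a shared position in muscle, 35.8% (31.3 to 40.5), against 38.3% of all gene names. In liver 205 of 304 had one, 67.4% (62.0 to 72.5), against 70.2%. The value over all gene names lay inside the interval in both tissues.

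Partner shares followed the peak score, the whole number of at least 30 that ranks peaks within a list and whose scale is not given in the sources used here. Scores of at least 100 were held by 5.05% of the WT muscle microRNA peaks against 4.66% of all peaks, by 5.02% against 5.14% in 3SA muscle, by 14.3% against 17.3% in WT liver and by 18.9% against 20.6% in 3SA liver. Of these strong peaks, 41 of 52 in WT muscle (78.8%, 66.0 to 87.8) and 71 of 102 in 3SA muscle (69.6%, 60.1 to 77.7) had a partner. In liver 91 of 106 WT peaks (85.8%, 78.0 to 91.2) and 150 of 183 3SA peaks (82.0%, 75.8 to 86.9) did. Over all peaks of that score the shares were 82.5%, 68.2%, 87.7% and 82.0%. Among microRNA peaks scoring 30 to 49 the shares were 11.1%, 4.45%, 19.0% and 9.59%. Over all peaks of that score they were 13.45%, 5.35%, 22.3% and 10.3%. For WT muscle the value over all peaks lay just above the interval (9.18 to 13.39), and for the other lists inside it. This class held 855, 1732, 495 and 563 of the microRNA peaks.

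**Figure D2:**
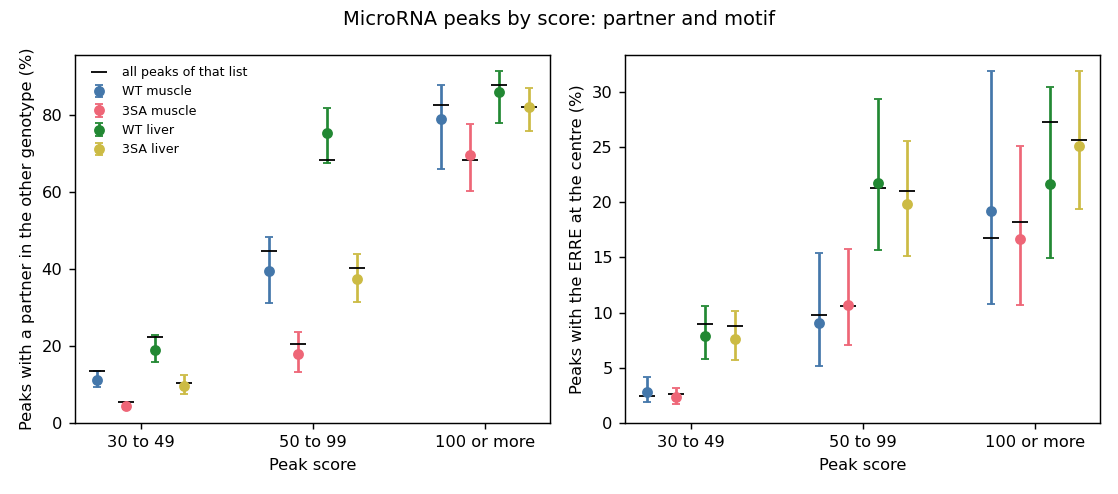
MicroRNA peaks by score class (horizontal axis): left, share with a partner in the other genotype (%), right, share with the ERRE in the central 300 bp (%). Points are the 4 lists with 95% Wilson intervals, and black lines are all peaks of the same list and class. Partner shares are 11.1% in the lowest and 78.8% in the highest class of WT muscle, and 19.0% and 85.8% in WT liver, close to the black lines.

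The ERRE occurred in 45 WT muscle microRNA peaks, 4.37% (3.28 to 5.80) against 3.92% of all peaks, and in 79 of 3SA muscle, 3.89% (3.13 to 4.82) against 4.28%. It occurred in 92 WT liver peaks, 12.4% (10.3 to 15.0) against 14.6%, and in 133 of 3SA liver, 13.7% (11.7 to 16.1) against 15.2%. Windows of the same size 5 kb to either side of the microRNA peaks held it in 0.875%, 0.739%, 1.35% and 1.45%. Peaks with a partner had it more often than those with none: 15.2% against 2.01% in WT muscle, 12.0% against 3.08% in 3SA muscle, 23.9% against 5.11% in WT liver and 24.4% against 9.25% in 3SA liver. The intervals of each pair did not overlap, and over all peaks of each list the same pairs were 12.4% against 1.79%, 12.4% against 3.36%, 25.2% against 6.71% and 25.4% against 10.4%.

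Sites found in all 4 lists were those where a WT muscle microRNA peak had a peak centre of each other list within 300 bp. There were 52, at 50 microRNA names, and 37 lay within 20 kb of the annotated start. Counted from each list, 5.05% of the WT muscle, 2.61% of the 3SA muscle, 6.90% of the WT liver and 5.48% of the 3SA liver microRNA peaks were such sites, against 6.48%, 3.30%, 7.67% and 5.79% of all peaks. In 19 of the 52 the ERRE lay in the central window of at least 1 list, and in 6 in that of all 4. The peaks at these sites ranked at a median of the top 8.23% of the WT muscle list, 4.73% of 3SA muscle, 17.4% of WT liver and 13.5% of 3SA liver. Single ranks ran from 0.0750% to 80.6%. The distance, motif and rank values were not computed for sites of other gene names found in all 4 lists. They therefore cannot be read as particular to microRNA sites. A rank percentage is the rank by score divided by the length of the list, with ties given the best rank, so it is smaller in a longer list for the same rank.

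Of the 52 sites, 6 ranked in the top 5% of every list, and they were those named for Mir6364, Mir22hg, Mir5127, Mir7659, Mir30a and Mir8100. The same count was not made over sites of other gene names. The Mir6364 site, in an intron of Prex1 on chromosome 2 (chr2:166638266-166639198 in WT muscle), had ranks 42, 38, 187 and 120 in WT muscle, 3SA muscle, WT liver and 3SA liver. It ranked highest of the 52 in each list, yet RefSeq places Mir6364 itself on chromosome 16. Mir22hg is the host gene of miR-22, a microRNA abundant in striated muscle. Its site, about 1 kb into the host gene (chr11:75461626-75463030 in WT muscle), had ranks 216, 230, 633 and 1010, and no ERRE. A further peak, at rank 8204, covered the start of the Mir22 hairpin in WT liver. The Mir30a site, 15.4 kb upstream of the first hairpin of the miR-30a and miR-30c-2 pair, had ranks 650, 875, 1058 and 517.

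**Figure D3:**
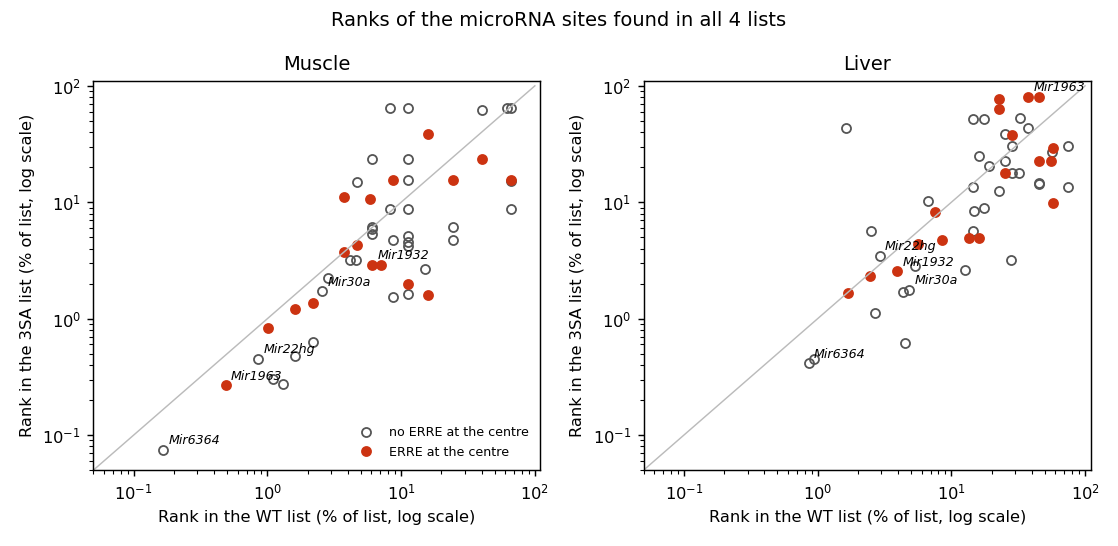
Rank of the 52 microRNA sites found in all 4 lists, as a percentage of the list (log scales, lower is stronger), WT on the horizontal and 3SA on the vertical axis, in muscle (left) and liver (right). Each point is 1 site, filled where the ERRE lay at the centre in either genotype of that tissue, and the grey line marks equal percentages. Mir6364 sits at the strong end in both tissues, and Mir1963 is near the strong end in muscle, at 0.488% and 0.269%, and near the weak end in liver, at 37.6% and 80.6%.

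At some of these sites the rank percentages lay far apart between the tissues. The site in an intron of Ryr1, the calcium release channel of skeletal muscle, carries 2 ERREs (the first windows printed above) and was named for Mir1963, whose hairpin lies 13.4 kb away. It had ranks 124 and 136 in WT and 3SA muscle, and 8204 and 23394 in WT and 3SA liver, which is 0.488%, 0.269%, 37.6% and 80.6% of the lists. The Trappc12 intron site named for Mir6937 had ranks 257 and 425 in muscle and 12528 and 2880 in liver, or 1.01%, 0.839%, 57.4% and 9.92%. Other sites lay closer together. The site near Mir700 was at 7.10% of WT muscle, 2.90% of 3SA muscle, 2.47% of WT liver and 2.31% of 3SA liver. The site in Por, the electron donor of microsomal cytochromes P450, named for Mir7034, was at 11.3%, 1.97%, 1.68% and 1.67%, so that WT muscle stood apart from the other 3 lists. The Rnf213 site named for Mir1932 was at 6.07%, 2.90%, 3.94% and 2.56%, with the ERRE in every central window.

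The highest-ranking microRNA peak of WT muscle lay in Esrra itself. Mir6990, whose hairpin sits in this gene, named 2 peaks in each muscle list. The intronic one (chr19:6911468-6912885 in WT) had rank 18 in WT and 88 in 3SA, and the centres were 143 bp apart. The other, at the hairpin start and just downstream of it, had rank 124 in WT and 288 in 3SA, with centres more than 300 bp apart. Neither liver list had a peak named for Mir6990. Peaks assigned to Esrra itself, 5.14 to 9.48 kb from the hairpin start, reached ranks 8, 6, 5 and 3 in the 4 lists. The Mir6990 peaks were thus close to some of the strongest peaks of each list, and the name was given by distance alone.

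Among the other best-ranked peaks of WT muscle was one 1.62 kb from Mir709 in Rfx1, at rank 86. In 3SA muscle a peak in an intron of Rai1 named for Mir6921 had rank 56 and no partner. A peak named for Mir5623 in an intron of Atrnl1 had rank 107, no partner, and a centre in a repeat. WT liver was led by a peak in an intron of Pde4d named for Mir1904, at rank 132 in WT and 125 in 3SA, 268 kb from the hairpin. The Mir6364 site described above, at ranks 187 and 120, and the Agpat3 intron site named for Mir7659, at rank 205 in WT and 132 in 3SA, were also among the best in liver. A wide interval 5.26 kb from Mir6516 had rank 257 in WT and 162 in 3SA liver. It overlapped between genotypes and had no partner because the centres differed by more than 300 bp. The muscle lists had overlapping intervals there at ranks 247 in WT and 143 in 3SA, with a partner, so the peak was not particular to liver.

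Other strong peaks within 20 kb of the start also lacked a partner by their centres. The peak in an intron of Klf9, a transcription factor induced by glucocorticoids, named for Mir1192 had ranks 216 and 200 in WT and 3SA muscle and 269 and 302 in WT and 3SA liver. All 4 intervals covered the ERRE printed above, while the centre of the wider 3SA muscle interval lay more than 300 bp from that of WT. The peak of WT muscle named for Mir7662 in an intron of Tspan15 had rank 773, and that of 3SA muscle near Mir1957a had rank 465. WT liver had a peak at rank 1969 with the ERRE 0.707 kb from Mir6972 in Cfb, a complement factor gene, and 3SA liver one at rank 2597 there. By shared bases in place of centres, 24.8% of the WT and 12.7% of the 3SA muscle microRNA peaks overlapped the other genotype, and 44.0% and 33.6% did in liver.

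With the host gene names left out, the annotated hairpin start lay inside the called interval for 30, 52, 17 and 28 peaks of WT muscle, 3SA muscle, WT liver and 3SA liver, at 99 names in all. These are 2.96% (2.08 to 4.19), 2.58% (1.97 to 3.37), 2.31% (1.45 to 3.67) and 2.91% (2.02 to 4.17) of the microRNA peaks. Over all peaks, the start of the nearest gene lay inside the interval more often, for 5.84%, 3.55%, 4.07% and 4.86%. Of these names 20 were covered in at least 2 lists and 3 in all 4, Mir339, Mir6340 and Mir7011. Mir339 had ranks 3863, 11987, 1969 and 826, so that its 2 strongest intervals were in liver. Mir6340, in Rab22a, had the ERRE in the central window of 3 of the 4 lists and ranks 10219, 11987, 4981 and 22579. Among peaks covering the start, that of Mir6990 in 3SA muscle ranked highest, at 288, followed by Mir133a-2 at 386 in 3SA and 428 in WT muscle.

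Of 13 names listed for the muscle microRNAs, 11 had a RefSeq entry and 6 held peaks, where 776 of the 1228 microRNA entries of RefSeq, 63.2%, did. They had 12 peaks in WT muscle, 20 in 3SA muscle, 4 in WT liver and 7 in 3SA liver. Muscle thus held 74.4% of them (59.8 to 85.1), against 64.2% of all microRNA peaks and 59.9% of all peaks, and the interval reaches down to both. Within 20 kb of the start, 4 names had a peak in WT muscle, 6 in 3SA muscle, 1 in WT liver and 0 in 3SA liver. Over all microRNA names this count was not made. MicroRNA peaks of any name within 20 kb numbered 537 in WT muscle, 1030 in 3SA muscle, 400 in WT liver and 527 in 3SA liver. The densest of the muscle microRNA loci was the transcription unit of Mir1a-1 and Mir133a-2 on chromosome 2. It yields miR-1 and miR-133a, and its host gene is listed as Mir1a-1hg. From 20 kb before Mir1a-1 to 20 kb after Mir133a-2 there were 9 peaks in WT muscle and 10 in 3SA muscle, of any gene name, and 0 in each liver list. Of these, 5 were shared between genotypes. The strongest covered the Mir133a-2 start (chr2:180396806-180398696 in WT and chr2:180396742-180398639 in 3SA), with ranks 428 and 386 and centres 61 bp apart. The pair downstream of Mir1a-1 had ranks 951 and 1152 for the nearer and 1543 and 1773 for the farther one. Upstream, a shared peak in Mir1a-1hg had ranks 1338 and 2146. None of the peaks in this unit had the ERRE in its central window.

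**Figure D4:**
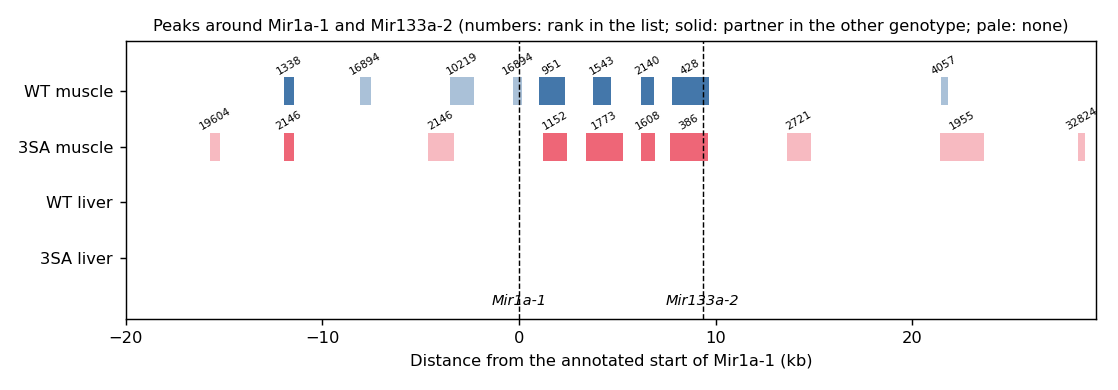
Called intervals of each list (rows) around Mir1a-1 and Mir133a-2, by distance from the annotated start of Mir1a-1 in kb, for peaks of any gene name. Dashed lines mark the hairpin starts, numbers give the rank in the list, and solid bars have a partner in the other genotype while pale bars have none. WT muscle shows 9 intervals and 3SA muscle 10, and both liver rows are empty.

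The other muscle microRNAs had weaker peaks. Mir208a lies in Myh6, the alpha cardiac myosin heavy chain gene, and a peak 2.02 kb from its start was shared between WT muscle, at rank 16894, and 3SA muscle, at rank 17698. Rank 16894 is that of the lowest score of the WT muscle list, held by 33.6% of its peaks. Mir499 lies in Myh7b, a slow myosin gene. Peaks of any name within 20 kb of it ranked at best 6260 in WT muscle, 11987 in 3SA muscle and 6227 in WT liver, or 24.6%, 23.7% and 28.5% of the lists, and 3SA liver had 0. The WT liver peak was assigned to Myh7b, and the one named for Mir499 had rank 16223. Stronger peaks named for Mir499 lay about 25 kb away in an intron of Trpc4ap, with ranks 659, 910, 470 and 548 in WT muscle, 3SA muscle, WT liver and 3SA liver, so these were not particular to muscle. Around Mir1a-2 and Mir133a-1, the other copies of this pair, 3SA muscle had 3 peaks within 20 kb, at best at rank 5445, and the other 3 lists had 0. Mir1b, Mir133b, Mir206, Mir208b and Mir486 held no peak by name. In the 20 kb around Mir206 and Mir133b there was 1 peak of another name in 3SA muscle, at rank 5574, and 1 in WT liver, at rank 7108.

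The liver list held 14 names, among them Mir22, Mir22hg and Mir21a, whose microRNAs are not confined to liver. Of the 14, 12 had a RefSeq entry and all 12 had a peak in at least 1 list, where 63.2% of the microRNA entries of RefSeq did. WT liver held 15 peaks, 3SA liver 26, WT muscle 8 and 3SA muscle 30. Muscle thus held 48.1% of them (37.4 to 58.9), against 64.2% of all microRNA peaks and 59.9% of all peaks. At Mir122, a peak about 4.6 kb upstream was shared by the liver lists, at rank 1289 in WT and 1754 in 3SA. WT muscle had 0 peaks within 20 kb of Mir122, and 3SA muscle had 2 at other positions, the better at rank 5574. The muscle peaks named for Mir122 that ranked highest, 138 in WT and 154 in 3SA, lay 73.6 kb away in an intron of Nedd4l.

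Mir192 and Mir194-2 form another unit of liver and gut microRNAs, on chromosome 19. A peak with the ERRE 5.29 kb from Mir192 had rank 6227 in WT liver and 5225 in 3SA liver, with centres 151 bp apart, and neither muscle list had a peak named for Mir192. In 3SA muscle 3 peaks named for Mir194-2 lay within 20 kb, the best at rank 4392, or 8.67% of the list, where the Mir192 peak stood at 28.5% of WT and 17.99% of 3SA liver. The best peaks of any name within 20 kb of the unit were assigned to Atg2a and ranked 1805, 1773, 718 and 743 in WT muscle, 3SA muscle, WT liver and 3SA liver. Mir21a, which yields the broadly expressed miR-21, had a peak about 8 kb away with ranks 1969 in WT liver, 3426 in 3SA liver and 2166 in 3SA muscle, and WT muscle had none by that name. Mir148a had a shared liver peak with the ERRE 74.6 kb away, at rank 4068 in WT and 3600 in 3SA. Mir101b held 1 peak within 20 kb in WT muscle, at rank 16894, the lowest score of that list, and 1 in 3SA muscle, at rank 29571. In 3SA liver it held 2, the better at rank 23329. The WT liver list had no peak named for it.

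Of 36 names listed for microRNAs with roles in metabolism, 33 had a RefSeq entry and 18 held peaks, beside the 63.2% of all RefSeq entries given above. By list, 10 names were in WT muscle, 13 in 3SA muscle, 10 in WT liver and 12 in 3SA liver. Of all 785 microRNA names, 482, 635, 403 and 461 were in these lists. Muscle held 56.0% of the peaks of this set (46.6 to 64.9), against 64.2% of all microRNA peaks and 59.9% of all peaks. Mir34a, whose product lowers SIRT1 and is a target of p53, had 2 adjoining sites upstream. The one at 14.2 kb was shared by all 4 lists, with ranks 2872, 824, 1165 and 820. The one at 12.4 kb holds the ERRE printed above and had ranks 1781, 1552, 605 and 631. Its muscle intervals overlapped with centres more than 300 bp apart, and its liver centres were 107 bp apart.

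Mir33, in an intron of the sterol regulator Srebf2, had a liver peak 14.2 kb upstream of the hairpin at rank 4523 in WT and 4792 in 3SA, or 20.7% and 16.5% of the lists. The muscle peaks named for Mir33 within 20 kb ranked 16894 in WT, the lowest score of that list, and 19604 in 3SA at best. A WT muscle peak assigned to Shisa8 in the same span had rank 4057, or 16.0%. Mir107, in the pantothenate kinase gene Pank1, had peaks in both liver lists and in neither muscle list by name, and no peak of any name lay within 20 kb of it in muscle. Its best liver peak, 24.5 kb away, had rank 2587 in WT and 4219 in 3SA. Mir23a had a shared peak 9.93 kb upstream in muscle, at rank 9931 in WT and 3101 in 3SA. Mir181a-1 had a shared liver peak 215 kb away at rank 789 in WT and 364 in 3SA. Mir378a was named at 3SA liver peaks on chromosome 9 alone, whereas RefSeq has this microRNA in Ppargc1b, the gene of the coactivator PGC-1β. Within 20 kb of that RefSeq position the best peaks were assigned to Ppargc1b and ranked 486, 218, 12528 and 3915 in WT muscle, 3SA muscle, WT liver and 3SA liver.

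The let-7 list held the 6 let-7 names with a peak in at least 1 list. All 6 were in WT liver, 5 in 3SA liver and 3 in each muscle list. Of all 785 microRNA names, 403 were in WT liver, 461 in 3SA liver, 482 in WT muscle and 635 in 3SA muscle. Muscle held 46.2% of the let-7 peaks (31.6 to 61.4), against 64.2% of all microRNA peaks and 59.9% of all peaks. A site 7.27 kb upstream of Mirlet7a-1 had a peak in every list, with ranks 1168, 1942, 2244 and 1860, and the centres of the liver lists were 108 bp apart. The Mirlet7b site with the ERRE, 9.32 kb from the hairpin, had ranks 3204 in WT liver, 2730 in 3SA liver and 7851 in 3SA muscle, and no peak was called there in WT muscle. The peak nearest to Mirlet7b in WT muscle was another, 2.05 kb away, at rank 2872. Mirlet7i had a site in all 4 lists, 99.2 kb away in an intron of Ppm1h, with ranks 2194, 780, 6999 and 5225.

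**Figure D5:**
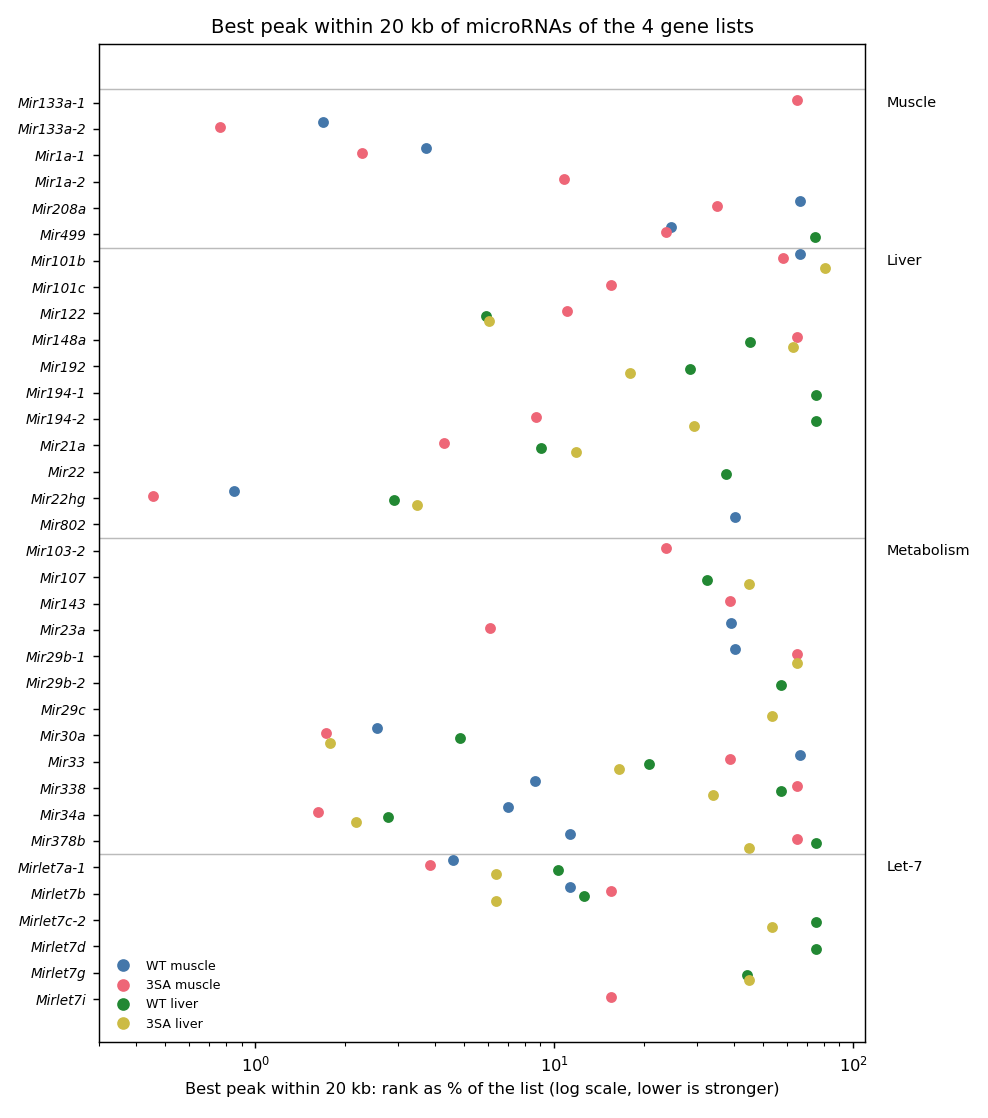
Best microRNA peak within 20 kb of the annotated start for microRNAs of the muscle, liver, metabolism and let-7 lists (rows), as rank in percent of the peak list (log scale, lower is stronger), coloured by list. A missing point means no such peak. Mir133a-2 and Mir1a-1 have points in the muscle lists alone, at 1.68% and 0.762% for Mir133a-2, while Mir22hg, Mir30a and Mir34a have points in all 4.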

How the data were processed

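ERRα ChIP-seq peak lists of WT and ERRα 3SA muscle and liver were used, 1 list for each. Per the labels and the study's methods, the authors ran Trimmomatic 0.36 for trimming, BWA 0.7.12 for alignment to mm10, Picard 2.0.1 for duplicate removal, MACS2 2.1.1.20160309 with input DNA as control and HOMER 4.9.1 for annotation. The deposited values of a peak are its score, a whole number of at least 30 whose scale is not given in the sources used here, a distance to the nearest TSS in bp, and CpG and GC contents as a fraction of the interval. The 4 input libraries have no list and were not used here. Positions are 1-based on GRCm38.p6, whose GC content equalled the deposited fraction within 0.001 for 29037 of 29040 3SA liver intervals and the other lists differed in at most 2 intervals.

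MicroRNA peaks were selected by gene name. Peaks were called near a gene within 20 kb of the TSS, as in the study, and shared when centres lay within 300 bp. Named microRNAs were those of 4 lists (muscle, liver, metabolism, let-7), the 5 best-ranked peaks of each list, sites in all 4 lists, the 3 best-ranked peaks near a gene with no partner in each list, peaks within 1 kb scoring at least 100 and peaks with an ERRE scoring at least 100, and the remaining peaks were counted. Members and lists were chosen with earlier results of these data known. Ties in score took the best rank. Alternatives were other scores, centre distances of 100 or 1000 bp, shared bases, lists of equal length, merged intervals, another motif, the whole interval, and names of host genes or displaced hairpins left out, the last of these and the partner share of strong peaks against the whole other list being chosen after seeing the data. Overlap and motif searches were tested on simulated data. Software was Python 3.11.15, samtools 1.23.1, pysam 0.24.0, scipy 1.17.1, pandas 2.3.3, matplotlib 3.10.9 and numpy 2.4.6.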

Additional observations from a re-analysis of the deposited data

Results flagged for a closer look

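The difference between 3SA and WT had opposite signs in muscle and liver for 3 shares of microRNA peaks. The difference between tissues was not tested, because each group is 1 library. The share within 20 kb of the annotated start differed, 3SA minus WT, by -1.47 percentage points in muscle and 0.315 in liver, and over all peaks by -4.58 and 4.04. The share with the ERRE differed by -0.483 points in muscle and 1.29 in liver, and over all peaks by 0.354 and 0.593. The share scoring at least 100 differed by -0.0313 points in muscle, where both values are near 5%, and by 4.56 in liver, from 14.3% to 18.9%, and over all peaks by 0.475 and 3.28. The 95% Wilson intervals of the genotypes overlapped for all 3 shares of microRNA peaks in both tissues.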

How the results depend on the processing

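Of 92 alternatives, 42 left the result within its own 95% interval (counts within 1.5 times), 49 moved it and 1 reversed it. Leaving out host gene names, or peaks whose hairpin RefSeq places elsewhere, moved none of the results they were run on. The ratio of 3SA to WT microRNA peaks in muscle was 1.72 for scores of at least 50 and 1.00 in lists of equal length. In liver it was 1.66 for scores of at least 50, 1.73 for at least 100 and 0.961 (0.867 to 1.06) in lists of equal length, which is below 1 and so the reversed result. In lists of equal length both hold the same number of peaks by construction. MicroRNA peaks scoring at least 100 numbered 52 in WT and 102 in 3SA muscle, and 106 and 183 in liver. Peaks of any name with such scores numbered 1185 and 2601 in muscle, and 3770 and 5971 in liver. The ratio over all peaks at scores of at least 50 was not computed. The following values are for WT muscle, 3SA muscle, WT liver and 3SA liver. At scores of at least 100 the share within 20 kb was 65.4%, 65.7%, 68.9% and 63.9%, and over all such peaks 67.3%, 61.3%, 60.2% and 60.6%.

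The partner share was 9.14%, 4.58%, 23.8% and 18.1% with centres within 100 bp, 28.7%, 14.9%, 46.5% and 35.6% within 1000 bp, and 24.8%, 12.7%, 44.0% and 33.6% by at least 1 shared base. It was 75%, 38.2%, 77.4% and 44.3% with scores of at least 100 in both lists, 78.8%, 69.6%, 85.8% and 82.0% with the other list whole, and 22.3%, 11.6%, 46.0% and 34.5% for peaks within 20 kb. The ERRE share was 6.90%, 5.51%, 18.1% and 20.04% for the motif TNAAGGTCA, and 6.90%, 6.75%, 17.3% and 18.3% in the whole interval. At scores of at least 100 it was 19.2%, 16.7%, 21.7% and 25.1%, against 16.8%, 18.3%, 27.3% and 25.7% of all such peaks. MicroRNA genes named in all 4 lists were 113 within 20 kb and 54 at scores of at least 50. Sites in all 4 lists were 9 with centres within 100 bp, 93 within 1000 bp and 90 by shared bases. For the alternatives of this paragraph given alone, no value over all peaks or gene names was computed. Their changes cannot be read as particular to microRNA peaks. No paired analysis was possible because each group is 1 library. Depth is unknown, and a peak absent from 1 list can lie just under its threshold. In muscle, 32.8% of WT and 34.7% of 3SA microRNA peaks had the lowest score that occurs in their list.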
